A study of Rattus norvegicus with 21 samples.

Results

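The genes described here are the interferon response genes, a list of 44 symbols chosen by name and by no measured value. Of these, 38 had a row in the deposited table of 17085 gene symbols, and all 38 passed the filter on low counts that left 11742 genes for testing. Isg20, Oas2, Oas3, Ddx60, Bst2 and Eif2ak2 were not analysed here. Measurements came from bulk RNA sequencing of the infarct zone of Sprague Dawley rat hearts, in 21 libraries that formed 7 groups of 3. The controls were Sham rats. MI24h hearts had the left anterior descending artery tied for 24 h and no reperfusion, which is called permanent ligation here. In MI1h_R ischemia lasted 1 h and reperfusion 23 h (early reperfusion), and in MI6h_R ischemia lasted 6 h and reperfusion 18 h (late reperfusion). All injured hearts were collected 24 h after ligation. MI24h_F, MI1h_F and MI6h_F (titled MI24h-F, MI1h-23h-F and MI6h-18h-F) carried the same injuries and an added F. The series' design text names fenofibrate, a drug that activates the fatty acid receptor PPARα, as a pretreatment, but the labels do not explain F, and no Sham group has it. Age and sex of the rats are not given in the labels. Whether the libraries within a group represent different rats is not stated in the labels either, so p-values measure the spread between these libraries, which may be technical.

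Interferons are secreted alarm proteins of antiviral defence. Type I interferons bind the receptor IFNAR, whose kinases JAK1 and TYK2 activate STAT2. STAT2 and IRF9 are parts of the complex ISGF3, which binds the interferon-stimulated response element (ISRE). Genes that answer to interferon gamma often carry the gamma-activated sequence (GAS). The induced genes block viral replication, sense foreign nucleic acids, prepare peptides for display to T cells, and regulate the pathway itself. In the infarcted heart, nucleic acids of dying cells are known to trigger IRF3 and a type I interferon response in infiltrating leukocytes.

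The RefSeq promoter table of the rat build GRCr8 held 29 of the 38 members, each with 250 bases before to 50 bases after the gene's start. Usp18, Ddx58, Dhx58, Zbp1, Ifit1, Ifit2, Mx2, Isg15 and Rtp4 had no entry there. The windows were searched on both strands for an ISRE core, spelled GAAA, any 2 bases and GAAA again, and for a GAS, spelled TTCNNNGAA, which reads the same on both strands. The ISRE core was found in 17 of 29 members (58.6%) and in 1034 of all 27457 genes of the table (3.77%). A GAS was found in 5 of 29 members (17.2%) and in 2382 of 27457 genes (8.68%). A match describes the letters and does not show that a factor binds there. The 5 windows below are examples that hold a match, and their genes cover only some roles of the list. Irf7 is the amplifying transcription factor, Ifit3 and Oas1a are antiviral effectors, and Gbp4 is a guanylate binding protein. Irf1 is a classic target of interferon gamma. Capitals mark the matches.
Irf7: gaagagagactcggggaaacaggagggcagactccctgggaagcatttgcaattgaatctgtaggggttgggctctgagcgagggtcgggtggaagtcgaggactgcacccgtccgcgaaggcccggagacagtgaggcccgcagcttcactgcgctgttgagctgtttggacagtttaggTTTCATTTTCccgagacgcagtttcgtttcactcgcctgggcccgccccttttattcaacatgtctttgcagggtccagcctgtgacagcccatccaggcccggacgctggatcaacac
Ifit3: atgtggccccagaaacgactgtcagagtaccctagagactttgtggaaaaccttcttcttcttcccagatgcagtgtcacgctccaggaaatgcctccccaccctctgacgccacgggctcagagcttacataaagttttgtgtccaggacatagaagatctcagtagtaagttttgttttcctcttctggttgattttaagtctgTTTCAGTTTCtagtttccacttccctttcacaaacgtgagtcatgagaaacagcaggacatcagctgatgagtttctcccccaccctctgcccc
Oas1a: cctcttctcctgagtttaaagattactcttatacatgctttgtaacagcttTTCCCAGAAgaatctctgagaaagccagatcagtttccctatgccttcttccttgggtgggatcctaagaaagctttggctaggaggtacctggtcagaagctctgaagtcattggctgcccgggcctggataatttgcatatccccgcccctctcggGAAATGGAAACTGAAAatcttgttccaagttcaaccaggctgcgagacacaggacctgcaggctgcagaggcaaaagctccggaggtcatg
Gbp4: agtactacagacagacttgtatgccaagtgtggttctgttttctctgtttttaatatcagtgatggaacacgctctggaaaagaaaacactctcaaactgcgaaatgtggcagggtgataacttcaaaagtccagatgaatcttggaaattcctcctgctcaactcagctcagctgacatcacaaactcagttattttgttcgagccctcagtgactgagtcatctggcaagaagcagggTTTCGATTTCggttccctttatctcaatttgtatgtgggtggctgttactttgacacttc
Irf1: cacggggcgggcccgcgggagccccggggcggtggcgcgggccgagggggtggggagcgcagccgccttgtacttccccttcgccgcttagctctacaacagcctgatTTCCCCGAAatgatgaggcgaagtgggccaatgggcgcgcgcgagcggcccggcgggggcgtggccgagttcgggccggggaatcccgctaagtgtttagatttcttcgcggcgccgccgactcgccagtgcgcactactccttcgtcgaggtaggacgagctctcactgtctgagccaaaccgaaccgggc
The Irf7 window (chr1:205799974-205800273, minus strand) has its ISRE core 69 bases before the start, and the Ifit3 window (chr1:241527076-241527375, plus strand) has it 44 bases before. In the Oas1a window (chr12:41330216-41330515, plus strand) a GAS lies 199 bases before the start, and 2 ISRE cores, 41 and 35 bases before it, overlap in 1 run of capitals. Gbp4 (chr2:233978236-233978535, plus strand) has an ISRE core 10 bases before the start. Irf1 (chr10:38417685-38417984, plus strand) has no ISRE core in its window and a GAS 142 bases before the start. Stat2, Trim25, Tlr3, Mx1, Oasl, Cmpk2, Ifi35, Herc6, Parp9 and Psmb9 had neither motif in these windows. The windows of Tap1 and Psmb9, neighbours on chromosome 20 in GRCr8, share 44 bases on opposite strands.

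Total counts per library ran from 12208041 to 18393795. Levels are given as CPM, counts relative to the total of the library, after scaling by the trimmed mean of M values (TMM), whose factors were 0.535 to 0.677 in Sham and 0.996 to 1.17 in the injured groups. Transcripts of the mitochondrial genome held 33.5% to 38.5% of the counts in Sham and 11.3% to 20.2% elsewhere. Comparisons with Sham depended on the scaling: with library size alone or with TPM, transcript shares that allow for gene length, the log2 fold changes of all genes against Sham had medians of 0.72 to 1.24, against 0.03 to 0.07 with TMM. Of the Sham libraries, replicate 31 stood apart in marker genes of its own: Spp1 (osteopontin, high in injury macrophages) had 0.09, 612 and 3.84 CPM in replicates 11, 31 and 41, and the cardiac myosin Myh6 had 21386, 6661 and 22298 CPM. Results against Sham are therefore also given without that library. In bulk tissue, fewer cells of a type and less RNA per cell cannot be told apart.

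The level of the interferon genes varied more between libraries of 1 group than between most groups. The mean log2 CPM over the 38 members was 6.79, 4.27 and 5.29 in Sham replicates 11, 31 and 41. It was 6.33, 6.47 and 4.56 in MI24h replicates 11, 21 and 41, and 4.86, 5.44 and 6.68 in MI1h_R replicates 11, 31 and 41. MI6h_R replicates 11, 21 and 31 lay close together at 4.13, 4.07 and 3.89. On this scale a Sham library held the highest of the 21 values, and the late-reperfused libraries of MI6h_R held 3 of the 4 lowest. Among the groups with F the mean was 6.77, 5.39 and 4.04 in MI24h_F replicates 1, 2 and 4. It was 4.42, 4.30 and 4.53 in MI1h_F replicates 1, 4 and 5, and 5.44, 5.44 and 4.52 in MI6h_F replicates 1, 2 and 4. The gap between the highest and the lowest library of a group was 2.73 in MI24h_F, 2.52 in Sham, 1.92 in MI24h and 1.82 in MI1h_R, against 0.24 in MI6h_R and 0.23 in MI1h_F. In TPM, the 38 members together took 0.0877% to 0.536% of a library. The highest share was that of MI24h_F replicate 1, followed by MI24h replicate 21 (0.517%), MI1h_R replicate 41 (0.507%) and MI24h replicate 11 (0.46%), and Sham replicate 11 had 0.314%.

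**Figure D1:**
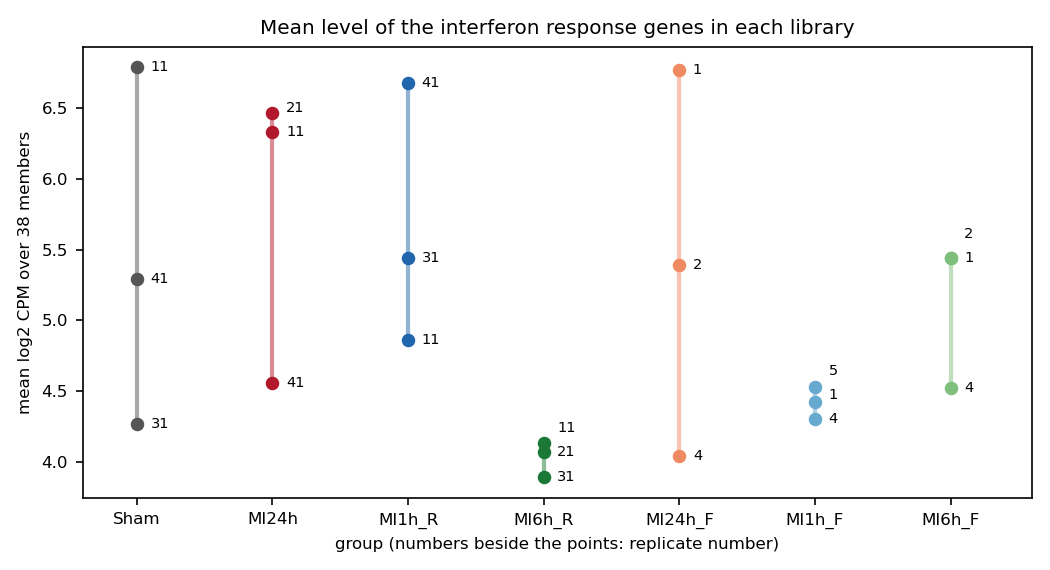
Mean log2 CPM of the 38 interferon response genes (vertical axis) in each library, by group (horizontal axis). Each point is a library with its replicate number, and the line spans the group. Sham, MI24h, MI1h_R and MI24h_F each span at least 1.82, while MI6h_R spans 0.24 and MI1h_F 0.23.

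In 5 of the 7 groups most members ranked the libraries alike at 1 end or both. In Sham, replicate 11 was the highest of the 3 libraries for 36 of 38 members (33.8% of all tested genes), and replicate 31 the lowest for 36 (33.6% of all genes). In MI24h, replicate 41 was the lowest for 37 members (34.5% of all genes), and in MI1h_R replicate 41 was the highest for 35 (39.3%). In MI24h_F, replicate 1 was the highest for 37 members (36.8%) and replicate 4 the lowest for 38 (35%). In MI6h_F, replicate 4 was the lowest for 34 (33.5%). MI6h_R and MI1h_F were less uniform: the library highest for most members was so for 16 in MI6h_R (replicate 11, 37.1% of all genes) and for 24 in MI1h_F (replicate 5, 33.2%), and the one lowest for most was so for 21 (replicate 31, 33.9%) and 20 (replicate 4, 28.9%). The standard deviation (SD) of log2 CPM within groups, pooled over the 7 groups, had a median of 0.97 over the members and 0.33 over all tested genes. By group these medians were 1.27 and 0.40 in Sham, 1.31 and 0.21 in MI24h_F, 0.29 and 0.24 in MI6h_R, and 0.18 and 0.20 in MI1h_F. The pooled SD was largest for Ifit1 (1.90), Mx1 (1.85) and Mx2 (1.84), effectors that bind foreign RNA or trap viral capsids. It was smallest for Irf1 (0.26), Psmb8 (0.35) and Psmb9 (0.36). Sham replicate 11 held the highest of all 21 values for 12 members, MI1h_R replicate 41 for 12 and MI24h_F replicate 1 for 8.

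**Figure D2:**
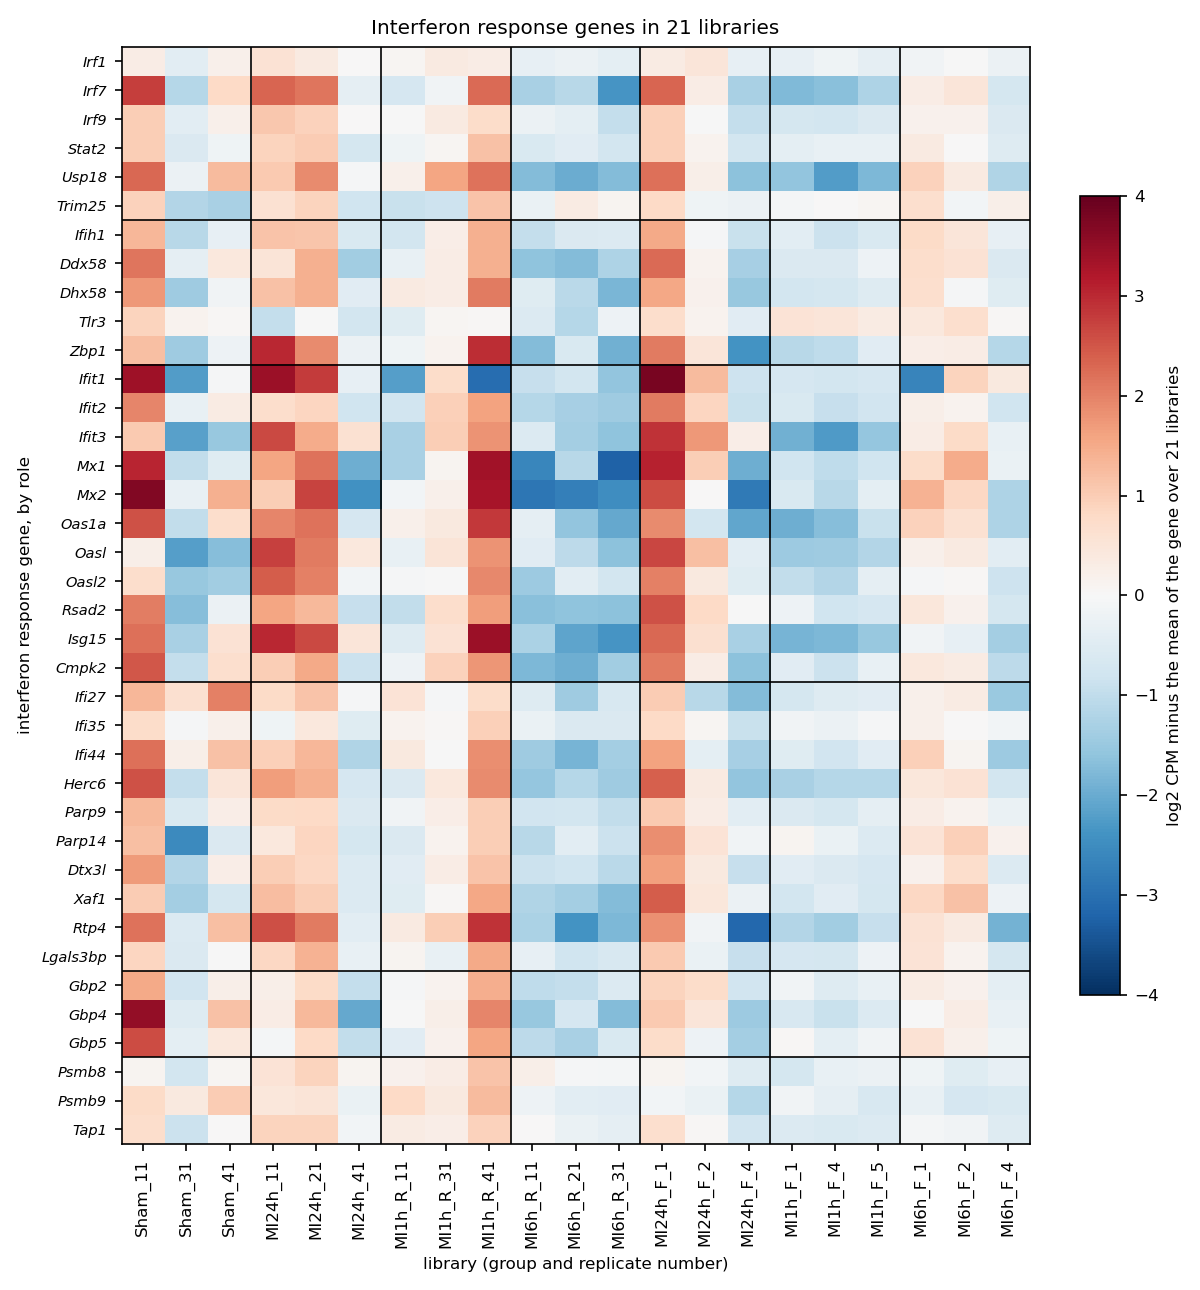
Log2 CPM of the 38 members (rows, grouped by role) in the 21 libraries (columns, grouped and labelled by group and replicate number), minus the mean of the gene over the libraries. Red columns run through nearly the whole list in Sham 11, MI24h 11 and 21, MI1h_R 41 and MI24h_F 1, and Ifit1 in MI1h_R 41 and MI6h_F 1 breaks the pattern.

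**Figure D3:**
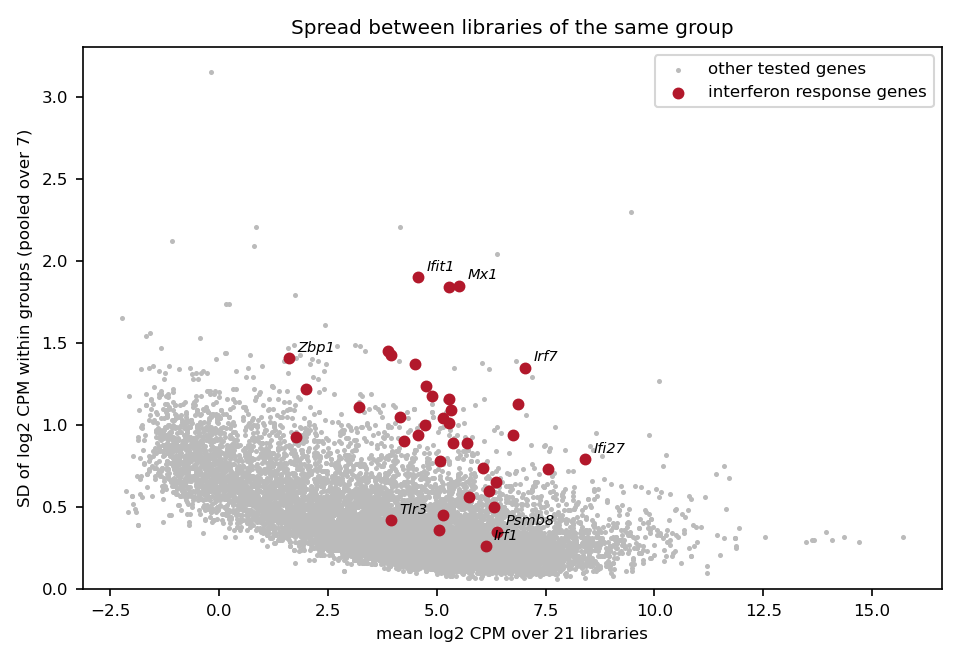
SD of log2 CPM within groups, pooled over the 7 groups (vertical axis), against the mean log2 CPM over 21 libraries (horizontal axis), for the 38 members (red) and the other tested genes (grey). Ifit1 lies at 1.90 and Mx1 at 1.85, and Irf1 at 0.26 and Psmb8 at 0.35 lie among the bulk of the genes.

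In TPM, which allows levels of different genes to be compared, Ifi27 had the highest mean over the 21 libraries at 708 TPM. Irf7 followed at 130, Isg15 at 122, Ifit3 at 117, Psmb8 at 114 and Lgals3bp at 112 TPM. Gbp4 at 2.86 TPM and Zbp1 at 3.73 TPM had the lowest means. In the next paragraphs the CPM values of a group follow the order of replicates 11, 31 and 41 in Sham and MI1h_R, 11, 21 and 41 in MI24h, 11, 21 and 31 in MI6h_R, 1, 2 and 4 in MI24h_F and MI6h_F, and 1, 4 and 5 in MI1h_F.

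Among the 6 signalling and transcription factors, Irf7 ranged most widely in level. Irf7, which amplifies the type I interferon response, had 882, 58.8 and 229 CPM in Sham, 660, 575 and 102 in MI24h, 81, 119 and 628 in MI1h_R and 52.8, 60.5 and 25.1 in MI6h_R. With F, Irf7 had 661, 161 and 53.2 CPM in MI24h_F, 38.3, 40.8 and 55.9 in MI1h_F and 162, 184 and 79.5 in MI6h_F. The 3 MI6h_R libraries and the 3 MI1h_F libraries were all at or below 60.5 CPM, while each of Sham, MI24h, MI1h_R and MI24h_F held at least 1 library of 628 CPM or more. Usp18, the enzyme that strips ISG15 from proteins and damps the receptor, had 45.3, 7.83 and 22.4 CPM in Sham, 19, 34.3 and 8.78 in MI24h, 10.6, 27.3 and 42.1 in MI1h_R and 2.67, 2.23 and 2.65 in MI6h_R. With F, Usp18 had 43, 10.7 and 2.86 CPM in MI24h_F, 2.94, 1.82 and 2.52 in MI1h_F and 17.3, 11.8 and 3.87 in MI6h_F. No MI6h_R library came near the other groups without F, whose lowest value was 7.83 CPM, and MI1h_F stood as low as MI6h_R. Irf1, a factor that interferon gamma also induces, had 86.4, 51.8 and 80.2 CPM in Sham, 104, 88.7 and 70.3 in MI24h, 73.2, 88.5 and 85.6 in MI1h_R and 54.9, 59.8 and 52.5 in MI6h_R. With F, Irf1 had 87.7, 97.4 and 55.5 CPM in MI24h_F, 54.9, 61.5 and 54 in MI1h_F and 63.2, 69.2 and 58.6 in MI6h_F. MI6h_R lay below MI24h and MI1h_R without overlap, yet Sham replicate 31 was lower still. Irf9 and Stat2, the partners in ISGF3, ranged over the 21 libraries from 27.4 to 112 CPM and from 49.0 to 185 CPM, and the ubiquitin ligase Trim25 from 13.6 to 75.0 CPM.

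Of the 5 sensors, Ddx58 and Tlr3 separated late reperfusion from Sham. Ddx58 (RIG-I), a cytoplasmic sensor of viral RNA ends, had 176, 31 and 53.5 CPM in Sham, 57.2, 107 and 15.2 in MI24h, 32.8, 49.6 and 107 in MI1h_R and 13.1, 12 and 17 in MI6h_R. With F, Ddx58 had 194, 44.8 and 15.9 CPM in MI24h_F, 26.9, 27 and 35 in MI1h_F and 65.7, 60.3 and 27.1 in MI6h_F. Its MI6h_R libraries lay below every Sham and MI1h_R library, but 1 MI24h library was as low. Ifih1 (MDA5), a sensor of long double-stranded RNA, had 104, 19.1 and 32.7 CPM in Sham, 91.7, 89.1 and 27.4 in MI24h, 25.1, 50 and 111 in MI1h_R and 21.5, 27.6 and 28.1 in MI6h_R. With F, Ifih1 had 118, 40 and 22.4 CPM in MI24h_F, 30.9, 22.7 and 27.4 in MI1h_F and 71.2, 57.6 and 33.1 in MI6h_F. All 7 groups overlapped at least 1 other group, and Sham, MI1h_R and MI24h_F each held 1 library above 100 CPM. Tlr3, the endosomal receptor of double-stranded RNA, had 28.2, 16.7 and 15.7 CPM in Sham, 7.8, 15.1 and 9.19 in MI24h, 10.9, 16.2 and 16 in MI1h_R and 10.4, 6.92 and 13.3 in MI6h_R. With F, Tlr3 had 24.9, 17 and 11.2 CPM in MI24h_F, 22.6, 21.6 and 19.3 in MI1h_F and 20.8, 24.5 and 15.7 in MI6h_F. Tlr3 was the only member whose MI24h libraries all lay below all Sham libraries. It was also the only one whose MI1h_F libraries all lay above all MI1h_R libraries. Its MI6h_R libraries lay below all Sham libraries, which held for 16 members, and its MI6h_F libraries above all MI6h_R libraries, which held for 22. Zbp1, a sensor of Z-form nucleic acids, had 6.8, 1 and 2.52 CPM in Sham, 24.4, 11.2 and 2.47 in MI24h, 2.56, 3.19 and 23.5 in MI1h_R and 0.78, 1.87 and 0.66 in MI6h_R. With F, Zbp1 had 12.7, 4.13 and 0.44 CPM in MI24h_F, 1.28, 1.38 and 2.09 in MI1h_F and 3.52, 3.6 and 1.25 in MI6h_F. Its values above 10 CPM came from MI24h replicates 11 and 21, MI1h_R replicate 41 and MI24h_F replicate 1. Dhx58, a regulator of both RNA helicases, ranged from 4.91 to 75.5 CPM.

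The 11 antiviral effectors gave the widest contrasts between libraries. Isg15, a ubiquitin-like protein that is joined to other proteins, had 103, 8.92 and 33.8 CPM in Sham, 182, 141 and 31.5 in MI24h, 15.5, 33.7 and 241 in MI1h_R and 9.21, 5.06 and 4.24 in MI6h_R. With F, Isg15 had 110, 34.7 and 8.95 CPM in MI24h_F, 6.01, 6.4 and 7.7 in MI1h_F and 20.4, 17.6 and 8.6 in MI6h_F. MI6h_R lay below MI24h and MI1h_R without overlap and reached 9.21 CPM, just above the lowest Sham library. Ifit3, which helps to hold viral RNA, had 241, 26 and 40.8 CPM in Sham, 730, 329 and 177 in MI24h, 47.4, 233 and 405 in MI1h_R and 79.5, 45.3 and 38.2 in MI6h_R. With F, Ifit3 had 862, 388 and 141 CPM in MI24h_F, 30.9, 24.4 and 39.7 in MI1h_F and 143, 197 and 95.4 in MI6h_F. Permanent ligation held the highest values with and without F, and 1 Sham library reached into both groups. Oasl, a relative of the oligoadenylate synthetases, had 45.6, 8.37 and 11.8 CPM in Sham, 257, 165 and 52 in MI24h, 31.4, 55.7 and 134 in MI1h_R and 28.2, 18.8 and 12.3 in MI6h_R. With F, Oasl had 249, 89.2 and 29 CPM in MI24h_F, 14.2, 14.5 and 17.3 in MI1h_F and 44.5, 49.8 and 28.7 in MI6h_F. All MI24h libraries were above all Sham libraries. The other effectors spread over wide ranges: Mx1, a GTPase that blocks virus replication, from 4.69 to 466 CPM, and Mx2, its paralog, from 5.09 to 507 CPM.

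Ifit1, which binds viral RNA caps, parted from its neighbours in 2 libraries. In MI1h_R replicate 41 it had 2.79 CPM (44 counts), which was 0.852% of the 328 CPM of Ifit2 in the same library. MI6h_F replicate 1 gave 3.72 CPM (56 counts), 2.91% of the 128 CPM of Ifit2. In the other 19 libraries Ifit1 lay between 5.61% and 145% of Ifit2. Ifit3 was high in the first of these libraries at 405 CPM and stood at 143 CPM in the second. RSEM divides reads between similar genes, and the Ifit, Oas, Mx and Gbp families hold similar copies, so that values within them are uncertain to that degree. The part of this in the 2 low Ifit1 values was not tested.

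**Figure D4:**
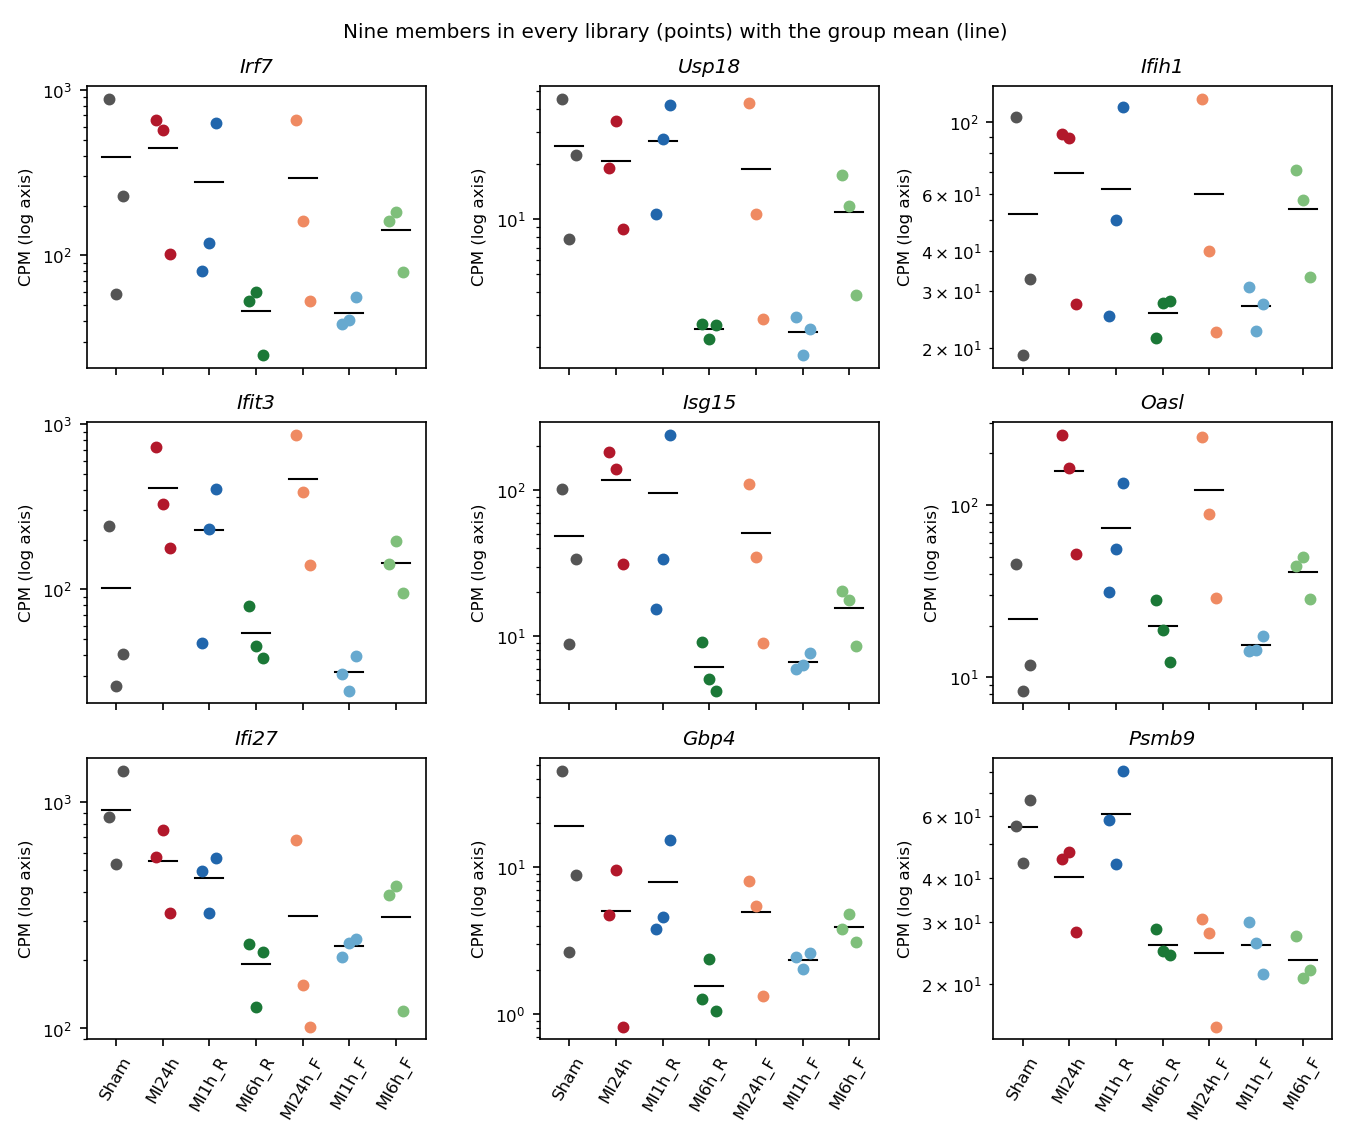
CPM of 9 members (1 panel each, logarithmic vertical axis) in the 7 groups (horizontal axis). Points are libraries and the line is the group mean. For Usp18 the MI6h_R and MI1h_F libraries all lie at or below 2.94 CPM, while Psmb9 in MI6h_R and the groups with F stays between 15.1 and 30.6 CPM.

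Among the 10 other induced genes, Ifi27 had its highest CPM in Sham but its highest TPM in MI24h replicate 21 (1621 TPM, against 984, 534 and 1072 in Sham). Ifi27, a mitochondrial and nuclear-envelope protein linked to cell death, had 859, 532 and 1383 CPM in Sham, 573, 752 and 325 in MI24h, 498, 325 and 565 in MI1h_R and 237, 125 and 217 in MI6h_R. With F, Ifi27 had 683, 156 and 102 CPM in MI24h_F, 207, 239 and 248 in MI1h_F and 390, 426 and 120 in MI6h_F. The MI6h_R libraries and those of MI1h_F lay below all Sham libraries. Xaf1, a binding partner of the apoptosis inhibitor XIAP, had 6.8, 1.18 and 1.97 CPM in Sham, 7.94, 6.66 and 2.19 in MI24h, 2.33, 3.41 and 9.84 in MI1h_R and 1.36, 1.2 and 0.88 in MI6h_R. With F, Xaf1 had 18, 4.51 and 2.79 CPM in MI24h_F, 1.92, 2.38 and 1.94 in MI1h_F and 5.97, 7.61 and 2.82 in MI6h_F. MI24h_F replicate 1 was the highest library, and MI6h_F lay above MI6h_R without overlap. Rtp4, a chaperone of receptors, had 65.8, 9.92 and 33.9 CPM in Sham, 88.2, 62.7 and 10.9 in MI24h, 18.7, 29 and 110 in MI1h_R and 5.96, 2.65 and 4.13 in MI6h_R. With F, Rtp4 had 52.1, 13.2 and 1.54 CPM in MI24h_F, 6.46, 5.46 and 7.7 in MI1h_F and 21.6, 18.9 and 3.81 in MI6h_F. The lowest value was that of MI24h_F replicate 4, whose group also held 52.1 CPM. Parp9 and its partner Dtx3l, which form an ADP-ribosyl and ubiquitin transferase pair, ranged from 37.3 to 179 CPM and from 23.1 to 169 CPM.

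The guanylate binding proteins are GTPases that attack the membranes around pathogens. Gbp4 had 45.5, 2.64 and 8.77 CPM in Sham, 4.74, 9.53 and 0.82 in MI24h, 3.81, 4.57 and 15.4 in MI1h_R and 1.26, 2.35 and 1.05 in MI6h_R. With F, Gbp4 had 8.09, 5.47 and 1.32 CPM in MI24h_F, 2.43, 2.01 and 2.59 in MI1h_F and 3.78, 4.78 and 3.09 in MI6h_F. Sham replicate 11 was the highest of the 21 libraries, and MI6h_R lay below all Sham libraries. Gbp2 had 191, 38.9 and 78.2 CPM in Sham, 78.7, 112 and 34.3 in MI24h, 64.8, 73.4 and 183 in MI1h_R and 32.8, 34 and 45.4 in MI6h_R. With F, Gbp2 had 123, 110 and 38.9 CPM in MI24h_F, 60, 46 and 53.5 in MI1h_F and 83, 75 and 50.4 in MI6h_F. MI6h_R overlapped Sham, through the 38.9 CPM of Sham replicate 31. Gbp5, which also takes part in inflammasome assembly, had 114, 14.2 and 25 CPM in Sham, 17.9, 32.4 and 9.32 in MI24h, 13.7, 21 and 56.2 in MI1h_R and 9.02, 7.52 and 12.3 in MI6h_R. With F, Gbp5 had 31.5, 16.4 and 7.19 CPM in MI24h_F, 19.3, 14.4 and 16.9 in MI1h_F and 27.9, 21.7 and 16.7 in MI6h_F. Its MI6h_R libraries lay below those of Sham and MI1h_R and overlapped those of MI24h.

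The antigen-processing members varied less within groups, with pooled SDs of 0.35 for Psmb8, 0.36 for Psmb9 and 0.50 for Tap1. Psmb9, a catalytic subunit of the immunoproteasome, had 56.4, 44 and 66.8 CPM in Sham, 45.2, 47.3 and 28 in MI24h, 58.4, 43.8 and 80.9 in MI1h_R and 28.7, 24.7 and 24.1 in MI6h_R. With F, Psmb9 had 30.6, 27.9 and 15.1 CPM in MI24h_F, 30, 26.1 and 21.3 in MI1h_F and 27.3, 20.8 and 21.9 in MI6h_F. All 12 libraries of MI6h_R and the groups with F were at or below 30.6 CPM, under every Sham and MI1h_R library. Psmb8, another immunoproteasome subunit, had 90.2, 50.4 and 88.4 CPM in Sham, 123, 155 and 89.3 in MI24h, 93.7, 103 and 183 in MI1h_R and 98.6, 81.4 and 79.5 in MI6h_R. With F, Psmb8 had 90.8, 78.1 and 58.9 CPM in MI24h_F, 51, 68.1 and 70.8 in MI1h_F and 74.2, 59.9 and 66.5 in MI6h_F. All MI1h_R libraries lay above all Sham libraries, and MI1h_F and MI6h_F lay below their counterparts without F. Tap1, which carries peptides into the endoplasmic reticulum, had 131, 44 and 81.4 CPM in Sham, 148, 149 and 73.9 in MI24h, 99.9, 95.1 and 152 in MI1h_R and 79.8, 66.8 and 62.6 in MI6h_R. With F, Tap1 had 128, 81.5 and 46.6 CPM in MI24h_F, 54.4, 52.4 and 54.3 in MI1h_F and 75.7, 72.9 and 55.4 in MI6h_F. MI1h_R lay above MI6h_R, MI1h_F and MI6h_F without overlap.

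The comparisons with Sham below share the same 3 Sham libraries, so they are not independent of each other. Genes were called at an adjusted p under 0.05 in edgeR's quasi-likelihood test with Benjamini-Hochberg adjustment over all 11742 genes, and fold changes are log2 values ± standard error (SE).

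Permanent ligation was compared with Sham to see the response at 24 h without reperfusion. Of the 38 members, 4 rose and 1 fell (28% of all tested genes rose and 26.2% fell). At an unadjusted p under 0.05, 4 were higher and 2 lower (59.2% of all genes in either direction). The groups did not overlap in 1 member that was higher, Oasl (27.1% of all genes), and in 1 that was lower, Tlr3 (26.1%). Oasl rose by 2.84 ± 0.76 (edgeR adjusted p = 0.00398), a 7.18-fold difference, and its relative Oasl2 rose by 2.15 ± 0.74 (adjusted p = 0.0204). Ifit3 rose by 2.00 ± 0.81 (adjusted p = 0.0443) and Psmb8 by 0.68 ± 0.27 (adjusted p = 0.0396). Tlr3 fell by 0.92 ± 0.33 (adjusted p = 0.0239) and had 0.06 and 0.08 on the 2 TPM scales, log2(TPM + 1) and log2(TPM + 0.1). The members' median was 0.18, against 0.07 over all genes, and it was 0.96 without Sham replicate 11 and -0.29 without Sham replicate 31. Scaled by library size alone, 9 members rose and 0 fell, while 6484 of all 11742 genes rose and 1504 fell. On both TPM scales 14 members rose and 0 fell, while 7375 and 7509 of all genes rose and 1208 and 1187 fell. With 1 library left out, 8 rose without Sham replicate 11, 1 without Sham replicate 31 or MI24h replicate 11, and 2 without Sham replicate 41 or MI24h replicate 21. The count of falls was then 0 without Sham replicate 11, MI24h replicate 11 or MI24h replicate 41, and 3 without Sham replicate 31 or MI24h replicate 21.

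Early reperfusion was hardly separated from Sham, and where the members lay depended on single libraries. Psmb8 rose by 0.73 ± 0.27 (edgeR adjusted p = 0.032), 1 of 38 members (25.4% of all genes rose), and 0 members fell (24.1% of all genes fell). At an unadjusted p under 0.05 there were 2 members higher and 0 lower (55.7% of all genes in either direction), and the groups did not overlap in 1, Psmb8 (24.7% of all genes were higher without overlap). DESeq2 called 0 members lower, as did limma-voom and both TPM fits. The members' median was 0.12, against 0.06 over all genes. It was 0.92 without Sham replicate 11, with 36 of 38 members above 0, and -0.57 without MI1h_R replicate 41, with 32 of 38 below 0. With library size alone 7 members rose and 0 fell, while 6597 of all 11742 genes rose and 1273 fell. On TPM 8 or 9 members rose and 0 fell, while 6741 or 6954 of all genes rose and 1148 or 1125 fell. Without Sham replicate 11, 5 members rose, without MI1h_R replicate 11, 2 did, and without Sham replicate 31 or MI1h_R replicate 41, 0 did. Without MI1h_R replicate 31, 1 member fell.

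Late reperfusion stood below Sham for most members, on the count scales. Of 38 members 22 fell and 0 rose (28% of all tested genes fell and 29.3% rose), and the members' median was -1.64 against 0.06 over all genes. Without adjustment, at p under 0.05, 25 were lower and 0 higher (61.9% of all genes in either direction). By role, 7 of 11 antiviral effectors fell, 7 of 10 other induced genes, 3 of 3 guanylate binding proteins, 2 of 5 sensors, 2 of 6 signalling and transcription factors, and 1 of 3 antigen-processing genes. Usp18 fell by 3.32 ± 0.85 (edgeR adjusted p = 0.0027), Gbp4 by 3.62 ± 0.93 (adjusted p = 0.00299) and Mx2 by 5.19 ± 1.44 (adjusted p = 0.00501). Ifi44, an interferon-induced gene of uncertain function, fell by 2.97 ± 0.78 (adjusted p = 0.00355) and Ifi27 by 2.26 ± 0.59 (adjusted p = 0.00338). Psmb9 fell by 1.11 ± 0.27 (adjusted p = 0.00202) and had 0.12 on both TPM scales. For 16 members every MI6h_R library was below every Sham library (28.4% of all genes). The count rested on the scaling. With library size alone 8 members fell and 2 rose, and on the TPM scales 0 or 1 fell and 4 rose. Of all 11742 genes 1510, 1172 and 1143 fell on these scales, and 6878, 7946 and 8033 rose. The members' medians were then -0.80, -0.07 and 0, against 0.91, 0.99 and 1.24 over all genes. Without Sham replicate 11 the median was -0.65, 5 members fell and Gbp4 was no longer called (-1.84, adjusted p = 0.0634), and without MI6h_R replicate 21, 14 fell. Without Sham replicate 31, 27 fell.

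Permanent ligation with F gave 2 members up and 2 down against Sham (30.7% of all genes rose and 30.1% fell). Oasl rose by 2.48 ± 0.75 (edgeR adjusted p = 0.00807) and Ifit3 by 2.17 ± 0.82 (adjusted p = 0.0277), the effectors that were also called without F. Psmb9 fell by 1.18 ± 0.27 (adjusted p = 0.00111) and Ifi27 by 1.56 ± 0.58 (adjusted p = 0.0265). At an unadjusted p under 0.05, 2 were higher and 4 lower (64.4% of all genes in either direction), and the groups did not overlap in 1, Psmb9, which was lower (30.3% of all genes). The members' median was -0.03, against 0.06 over all genes, and it was 0.78 without Sham replicate 11 and -0.77 without MI24h_F replicate 1. With library size alone 7 members rose and 0 fell, while 6372 of all 11742 genes rose and 1945 fell. On both TPM scales 10 members rose and 0 fell, while 7140 and 7291 of all genes rose and 1546 and 1537 fell. The count of rises was 8 without Sham replicate 11, 1 without Sham replicate 31 or 41, and 0 without MI24h_F replicate 1. Falls numbered 4 without Sham replicate 31, 6 without MI24h_F replicate 1 and 1 without MI24h_F replicate 2 or 4.

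Early reperfusion with F stood below Sham in 12 members and above it in 0 (24.2% of all genes fell and 23.9% rose), and at an unadjusted p under 0.05 in 16 and 0 (54.5% of all genes in either direction). For 12 members every MI1h_F library was below every Sham library (26.8% of all genes). The members' median was -1.28, against 0.03 over all genes. Usp18 fell by 3.37 ± 0.86 (edgeR adjusted p = 0.00355), Irf7 by 3.12 ± 1.00 (adjusted p = 0.016) and Gbp4 by 3.02 ± 0.91 (adjusted p = 0.0107). Herc6, a ligase that attaches ISG15, fell by 2.58 ± 0.91 (adjusted p = 0.0258), Ifi27 by 2.00 ± 0.59 (adjusted p = 0.00945) and Psmb9 by 1.11 ± 0.27 (adjusted p = 0.00276), although Psmb9 had 0 on both TPM scales. Scaled by library size alone, 3 members fell and 1 rose, while 1040 of all 11742 genes fell and 6626 rose. On the TPM scales 0 or 1 member fell and 4 rose, while 804 or 733 of all genes fell and 7772 or 7914 rose. Without Sham replicate 11 the median was -0.21 and 3 fell, and Irf7, Gbp4 and Herc6 were not among them. Without Sham replicate 31, 22 fell, and without MI1h_F replicates 1, 4 or 5 in turn 4, 4 and 5 fell.

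Late reperfusion with F differed from Sham in 3 members, all lower (28.5% of all genes fell), and 0 rose (28.6% of all genes). Psmb9 fell by 1.26 ± 0.27 (edgeR adjusted p = 0.000766), Gbp4 by 2.29 ± 0.87 (adjusted p = 0.0319) and Ifi27 by 1.57 ± 0.58 (adjusted p = 0.0277). At an unadjusted p under 0.05, 3 were lower and 0 higher (61.5% of all genes in either direction), and for 2 members every MI6h_F library was below every Sham library (28.6% of all genes were lower without overlap). DESeq2 and limma-voom called 0 higher. The members' median was -0.54, against 0.04 over all genes. With library size alone 1 member rose and 0 fell, while 6490 of all 11742 genes rose and 1560 fell. On both TPM scales 8 members rose and 0 fell, while 7373 and 7501 of all genes rose and 1272 and 1251 fell. Without Sham replicate 11 the median was 0.27, 4 rose and Gbp4 had -0.53 (adjusted p = 0.598), and without MI6h_F replicate 4, 1 fell. Without Sham replicate 31, 4 fell. Without Sham replicate 41 or any 1 of the other MI6h_F libraries, 2 fell.

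**Figure D5:**
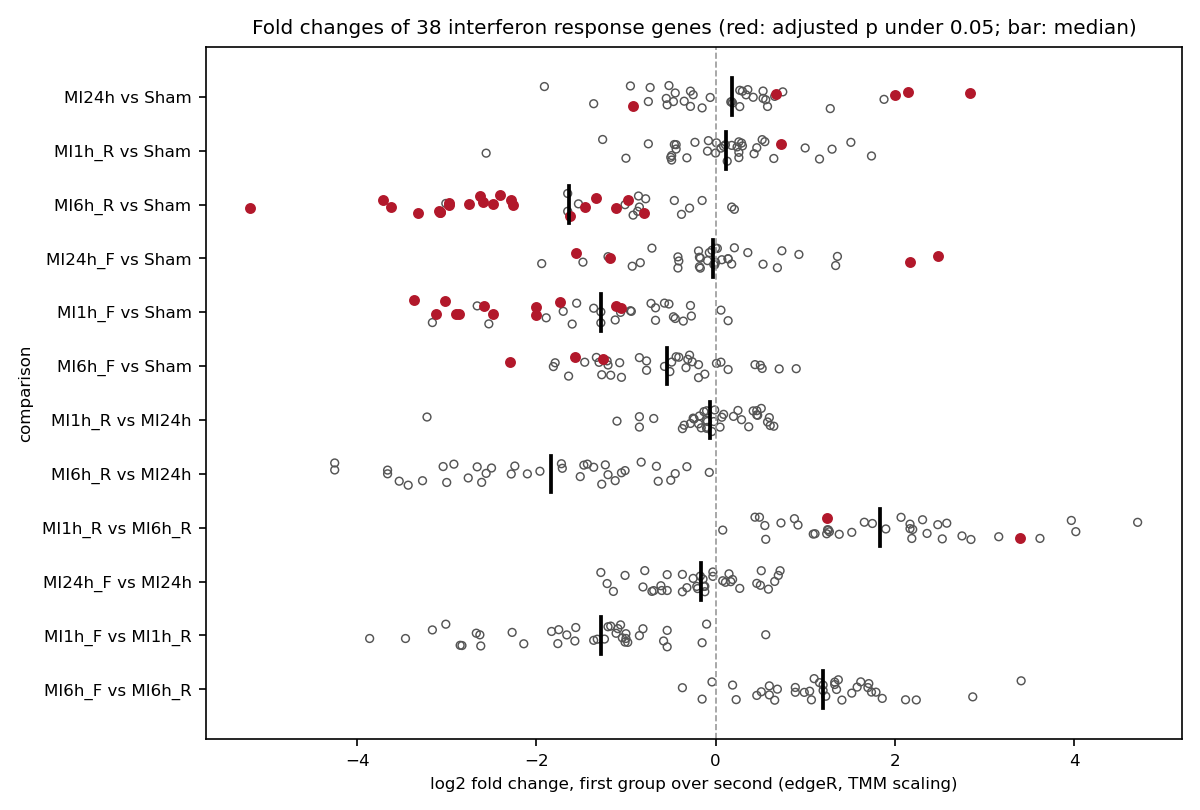
Log2 fold changes of the 38 members (horizontal axis, edgeR with TMM scaling, first group over second) in the 12 comparisons of groups (vertical axis). Each circle is a gene, red at an adjusted p under 0.05, and the bar is the median: -1.64 in MI6h_R vs Sham, with 22 red circles, and 1.83 in MI1h_R vs MI6h_R, with 2. Against Sham the positions depend on the scaling, and on log2(TPM + 1) the MI6h_R median is -0.07.

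The members' medians in comparisons between injured groups moved less with the scaling than those against Sham. The TPM fits nonetheless had fewer members at an unadjusted p under 0.05 than edgeR. Early reperfusion and permanent ligation were not separated: 0 members were called in either direction (1.51% of all genes rose and 2.81% fell), and at an unadjusted p under 0.05 there was 1 each way (21% of all genes in either direction). The other tools, DESeq2, limma-voom and both TPM fits, also called 0. The members' median was -0.06, against 0 over all genes. Ifit1 had -3.22 ± 1.34 (edgeR adjusted p = 0.179), Psmb9 0.60 ± 0.27 (adjusted p = 0.207) and Oasl -1.10 ± 0.71 (adjusted p = 0.393). The Ifit1 value includes the 2.79 CPM of MI1h_R replicate 41.

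Late reperfusion was below permanent ligation in the fitted value of all 38 members, with a median of -1.84 against -0.01 over all genes. edgeR nonetheless called 0 members (0.392% of all genes fell and 0.111% rose), with 30 lower and 0 higher at an unadjusted p under 0.05 (8.48% of all genes in either direction). DESeq2 called 7 members lower (120 of 12542 genes), and limma-voom and both TPM fits 0. At an unadjusted p under 0.05 the TPM fits had 15 and 16 members lower, with medians of -1.34 and -1.43. In 23 members every MI6h_R library was below every MI24h library (7.09% of all genes). Isg15 had -4.25 ± 1.07 (edgeR adjusted p = 0.103), Oasl -3.00 ± 0.76 (adjusted p = 0.107) and Usp18 -3.04 ± 0.84 (adjusted p = 0.145), and DESeq2 called all 3, with adjusted p = 0.00336, 0.0117 and 0.0254.

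Early reperfusion was above late reperfusion in the fitted value of all 38 members, with a median of 1.83 against 0.01 over all genes. Of these, 2 were called by edgeR (1.26% of all genes rose), and 0 were called lower (1.15% of all genes fell). Usp18 rose by 3.40 ± 0.85 (edgeR adjusted p = 0.0421), a 10.6-fold difference, and Psmb9 by 1.24 ± 0.27 (adjusted p = 0.0277). Without adjustment, at p under 0.05, 31 were higher and 0 lower (22% of all genes in either direction). In 30 members every MI1h_R library was above every MI6h_R library (13.2% of all genes). DESeq2 called 12 members higher, limma-voom 2 (with a median of 1.11), and the TPM fits 1 and 0. Of all genes, DESeq2 called 453 of 11151 higher, limma-voom 1366 of 11742, and the TPM fits 90 and 71. At an unadjusted p under 0.05 each TPM fit had 9 members higher, with medians of 1.15 and 1.28. Without MI1h_R replicate 11, or without any 1 MI6h_R library, edgeR called 0, and without MI1h_R replicate 31 it called 1. Without MI1h_R replicate 41, the highest library of the group, it called 2 and the median was 1.10.

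Groups with F were compared with those without it within each injury. The libraries with F also have their own titles and replicate numbers. F therefore cannot be told apart from other differences between these sets of libraries. In permanent ligation the members' median was -0.16, against -0.07 over all genes, and 0 were called by edgeR (5.19% of all genes rose and 7.78% fell). At an unadjusted p under 0.05, 1 was higher and 2 lower (29.1% of all genes in either direction). Psmb9 had -0.71 ± 0.27 (edgeR adjusted p = 0.091), Psmb8 -0.69 ± 0.27 (adjusted p = 0.097) and Tlr3 0.72 ± 0.32 (adjusted p = 0.148). DESeq2 and both TPM fits called 0 members. limma-voom called 5 lower, Psmb9 (adjusted p = 0.0209) and Psmb8 (adjusted p = 0.00938) among them. It also called 1624 of all 11742 genes lower, a share close to that of the members. The limma-voom median was -0.74, with 32 of 38 members below 0. Without MI24h_F replicate 1 edgeR called 1 lower, and the median was -1.06 with 37 of 38 below 0, while without MI24h_F replicate 4 it was 0.25.

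In early reperfusion 37 of 38 members were lower with F in the fitted value, the exception being Tlr3. The median was -1.28, against 0 over all genes. edgeR called 0 members (0.0511% of all genes fell and 0.0255% rose), with 20 lower and 0 higher at an unadjusted p under 0.05 (16.3% of all genes in either direction). For 25 members every MI1h_F library was below every MI1h_R library (14% of all genes), and for 1, Tlr3, every one was above (10.8% of all genes). Psmb9 had -1.24 ± 0.27 (edgeR adjusted p = 0.0688), Usp18 -3.46 ± 0.86 (adjusted p = 0.0932) and Psmb8 -1.0 ± 0.27 (adjusted p = 0.121). DESeq2 called 5 members lower (173 of 11707 genes), these 3 among them with adjusted p = 0.00444, 0.00614 and 0.0328. limma-voom called 4 lower and 1 higher, while it called 1338 of all 11742 genes lower and 1451 higher. Both TPM fits called 0 members. At an unadjusted p under 0.05 the TPM fits had 9 and 8 members lower and 1 and 0 higher, with medians of -0.82 and -0.84. An edgeR fit of these 2 groups alone also called 0 members (7 of 11217 genes rose and 2 fell). Without MI1h_R replicate 41 the median was -0.76, as it was with limma-voom.

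In late reperfusion the members' fitted values were mostly higher with F: 35 of 38 were above 0, and the median was 1.20 against -0.02 over all genes. edgeR called 0 members (3.92% of all genes rose and 5.71% fell), with 7 higher and 0 lower at an unadjusted p under 0.05 (26.1% of all genes in either direction). Tlr3 had 0.99 ± 0.32 (edgeR adjusted p = 0.0596), Xaf1 2.24 ± 0.75 (adjusted p = 0.0643) and Usp18 2.12 ± 0.82 (adjusted p = 0.108). For 22 members every MI6h_F library was above every MI6h_R library (15.8% of all genes), and for 1, Psmb8, every one was below (18.9% of all genes). DESeq2 called 3 members higher (778 of 11707 genes), limma-voom 1 (885 of 11742 genes) and both TPM fits 0. At an unadjusted p under 0.05 the TPM fits had 2 and 3 members higher, with medians of 0.88 and 1.06. When the fit held these 2 groups alone edgeR called 17 higher (565 of 11208 genes rose). Xaf1 (edgeR adjusted p = 0.0229) and Usp18 (adjusted p = 0.0334) were among them. The main fit shares its estimate of the spread among all 7 groups. The members' median SD was 0.29 in MI6h_R and 0.58 in MI6h_F, and it ran from 0.18 in MI1h_F to 1.31 in MI24h_F.

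Whether the difference between groups with and without F varied by injury was tested as a difference of differences. Late minus early reperfusion had a positive value in all 38 members, with a median of 2.61 against -0.03 over all genes (1.67 with limma-voom and 1.64 on log2(TPM + 1)). edgeR called 0 members (0.00852% of all genes rose and 0% fell), and 32 were higher and 0 lower at an unadjusted p under 0.05 (13.2% of all genes in either direction). Usp18 had 5.57 ± 1.18 (edgeR adjusted p = 0.215), Ifit3 4.27 ± 1.16 (adjusted p = 0.264) and Isg15 5.18 ± 1.43 (adjusted p = 0.264). DESeq2 called these 3, with adjusted p = 0.00341, 0.0486 and 0.0443, and limma-voom and a fit of the 4 groups alone each called 1, Usp18. Of all genes, 27 of 9761 were called higher by DESeq2, 586 of 11742 by limma-voom and 2 of 11520 in the fit of 4 groups. Both TPM fits called 0. Early reperfusion minus permanent ligation had a median of -1.32, and late reperfusion minus permanent ligation one of 1.32, against 0.05 and 0.01 over all genes. The first was -0.08 with limma-voom, -0.34 without MI24h_F replicate 1 and -0.58 without MI1h_R replicate 41, and the second was 2.24 without MI24h_F replicate 1. In these comparisons edgeR called 0 members and 0% of all genes, with 3 members lower in the first (16.9% of all genes in either direction) and 1 higher in the second (3.62%) at an unadjusted p under 0.05, and DESeq2, limma-voom and both TPM fits called 0. Usp18 had -3.32 ± 1.12 (edgeR adjusted p = 0.196) and Ifit3 -3.02 ± 1.13 (adjusted p = 0.228) in the first, and Rtp4 had 3.07 ± 1.36 (adjusted p = 1) in the second.

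The interferons themselves were at the limit of detection. Of 10 interferon genes listed, 7 had a row and 0 passed the filter. Ifna4, Ifna5, Ifnb1, Ifnk and Ifnl3 had 0 counts in all 21 libraries, which allows up to 3 counts per library or 0.145 to 0.329 CPM, for counting error alone. Ifng, the gamma interferon made by T and NK cells, had 3 counts in all, and Ifne had 5.

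Most genes upstream of the members were not lower in late reperfusion. In MI6h_R against Sham, where 22 of 38 members fell, 5 of 10 receptor and JAK-STAT genes rose and 1 fell. Of 10 genes that act before interferon is made 7 rose and 1 fell (29.3% of all genes rose and 28% fell). Ikbke, a kinase of IRF3, rose by 2.44 ± 0.36 (edgeR adjusted p = 1.81e-05), the receptor kinase Tyk2 by 1.40 ± 0.24 (adjusted p = 7.31e-05) and Socs1, a feedback inhibitor of the kinases, by 1.28 ± 0.29 (adjusted p = 0.00101). Mavs, the mitochondrial adaptor of Ddx58 and Ifih1, fell by 2.55 ± 0.23 (adjusted p = 2.44e-07), as did the marker genes of cardiomyocytes. In MI24h against Sham 5 genes of the receptor list rose and 1 fell, and the upstream list had 7 up and 1 down. Of the members 4 rose and 1 fell there, and of all genes 28% rose and 26.2% fell. On library size alone or TPM, 9 of 10 genes of each of these lists rose in both comparisons and 0 or 1 fell. Of all 11742 genes 6484 to 8033 rose. Of 15 tested genes known for induction by interferon gamma, 1 rose and 4 fell in MI6h_R against Sham, where 29.3% of all genes rose and 28% fell (5 or 6 rose and 1 or 2 fell with library size alone or TPM), and Cxcl9, a chemokine that draws T cells, fell by 2.36 ± 0.45 (adjusted p = 0.000209). Cxcl11, a related chemokine, fell by 1.99 ± 0.51 (adjusted p = 0.0027), a call lost on both TPM scales (adjusted p = 0.259 and 0.274). Cd74, the chain that guides MHC class II, fell by 1.13 ± 0.26 (adjusted p = 0.00135) and had 0.05 on both TPM scales.

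Marker genes of the cell types that the infarct zone can hold moved between the groups. The summed CPM of 10 cardiomyocyte markers was 48083 to 86257 in Sham and 1948 to 13902 in the injured groups. The 5 recruited monocyte or macrophage markers with a row (of 8) summed to 198 to 1271 in Sham and 2840 to 14082 in the injured groups, and the 8 neutrophil markers to 186 to 245 and 366 to 3180. MI6h_R, the lowest group for the members, had 2840 to 12744 for the recruited macrophage list, against 6367 to 7079 in MI24h. Fn1 was the largest gene in these sums, with 3381, 8848 and 1257 CPM in MI6h_R and 4528, 4054 and 3510 in MI24h. For the neutrophil list MI6h_R had 1282 to 1542, against 592 to 3180 in MI24h. For 7 resident-type macrophage markers (of 8 listed) MI6h_R had 723 to 929, against 456 to 535 in Sham and 268 to 308 in MI24h. These markers did not move together, since 2 rose and 3 fell in MI6h_R against Sham (29.3% of all genes rose and 28% fell). Cd163 had 157 to 305 CPM in MI6h_R and 21.1 to 29.8 in Sham, and Mrc1 287 to 424 and 45.5 to 106. C1qa went the other way, with 26.5 to 44.9 CPM in MI6h_R and 82.2 to 126 in Sham, as did C1qb and C1qc. The 8 fibroblast markers summed to 10469 to 12603 in Sham, 2113 to 2901 in MI6h_R and 3939 to 9488 in MI6h_F. Of these 8, 7 fell in MI6h_R against Sham (28% of all genes) and 4 rose in MI6h_F against MI6h_R (3.92% of all genes). The 5 plasmacytoid dendritic cell markers, of a cell type that makes type I interferon, summed to 23.2 to 54.2 in Sham and 37.4 to 85.2 in the injured groups, with Klk1 at 0 in all 21 libraries. Tcf4, which other cells also express, made up most of that sum in Sham (20.8 to 53.9 CPM). Siglech had at most 0.82 CPM in Sham, with 0 in 2 of 3 libraries, and 2.37 to 17.8 in the injured groups, and Spib had 0.11 to 1.00 and 4.41 to 20.3. Of the 4 tested markers of this list, 3 rose in MI6h_R against Sham (29.3% of all genes). Of the 9 T and NK cell markers (of 12 listed), which summed to 47.8 to 236, Cd3e was at most 1.25 CPM. Cd3d was at most 1.09 and Cd3g at most 3.63 CPM. The highest sum, in MI1h_R replicate 11, was mostly Cd8a at 210 CPM. In MI6h_R against Sham 1 of these 9 markers rose and 3 fell (29.3% of all genes rose and 28% fell). All marker calls here came from edgeR with TMM scaling, on which calls against Sham depended. Within Sham, replicate 31, the lowest for the members, had the highest recruited macrophage sum, 1271 against 286 in replicate 11 and 198 in replicate 41. The part of these cell types in the members' levels was not tested.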

How the data were processed

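Total RNA was sequenced as mRNA libraries (RNeasy, NEBNext Ultra, per the labels' protocols). Reads were aligned with STAR 2.7.3a and quantified with RSEM 1.3.1 on rn7, per the submitters' processing notes. The annotation and strandedness are not given in the sources used here. The authors deposited RSEM estimated counts, whole numbers in the file, and TPM per gene symbol. Counts of 12208041 to 18393795 per library set the precision, and intervals and floors cover counting error only.

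Groups followed the sample titles. Counts were tested with edgeR 4.0.16 (R 4.3.3): filterByExpr, TMM, quasi-likelihood fit with 1 term per group over all 21 libraries, 12 comparisons of groups and 3 differences of differences, Benjamini-Hochberg adjustment over 11742 genes, called at an adjusted p under 0.05. CPM use TMM-scaled library sizes, and log2 CPM have a prior count of 2. An exact permutation test of 3 against 3 libraries cannot go below 0.1, so none was used.

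Alternatives were median-of-ratios factors, scaling by library size only, all genes unfiltered, DESeq2 1.42.0, limma 3.58.1 (voom with quality weights, called limma-voom in the text, and trend on log2(TPM + 1) and log2(TPM + 0.1), on which fold changes of low genes are understated), only the groups compared, a replicate block, and each library left out. The fitting code was tested on simulated data. Fold changes are named, per comparison, for up to 6 called members per direction by smallest p, or for the 3 with the smallest p where none was called. Values in every library are printed for the 3 members of each role with the smallest p in the test of any difference among the 7 groups, and for the one with the highest mean TPM. Pathway genes outside the members are named for up to 4 per list by smallest p, and 1 gene of these lists is not reported here. The members, gene lists and tests were chosen with earlier results of these data known.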

Additional observations from a re-analysis of the deposited data

How the results depend on the processing

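Calls against Sham depended on the scaling and on single libraries. With library size alone the members up and down against Sham were 9 and 0 in MI24h, 7 up in MI1h_R, 2 and 8 in MI6h_R, 7 and 0 in MI24h_F, 1 and 3 in MI1h_F, and 1 and 0 in MI6h_F, and 1 was higher in MI1h_R than in MI6h_R. On log2(TPM + 1) they were 14 and 0, 8 up, 4 and 0, 10 and 0, 4 and 0, and 8 and 0, in the same order, and 1. On log2(TPM + 0.1) they were 14 and 0, 9 up, 4 and 1, 10 and 0, 4 and 1, and 8 and 0, and 0. Under these scalings 6372 to 8033 of all 11742 genes rose against Sham and 733 to 1945 fell. Tlr3 in MI24h against Sham turned to 0.06 and 0.08 on the 2 TPM scales and Psmb9 to 0.12 and 0.12 in MI6h_R and 0 and 0 in MI1h_F. DESeq2 called 3 members down in MI24h and 4 in MI24h_F against Sham, 7 down in MI6h_R against MI24h, 12 up in MI1h_R against MI6h_R, 5 down in MI1h_F against MI1h_R, 3 up in MI6h_F against MI6h_R, and 3 up in the late minus early difference. In the same order and directions DESeq2 called 3368, 3727, 120, 453, 173, 778 and 27 of all genes. limma-voom called 0 down in MI24h, 0 up in MI1h_R, 13 down in MI6h_R and 6 down in MI1h_F against Sham, 5 down in MI24h_F against MI24h, 1 up and 4 down in MI1h_F against MI1h_R, 1 up in MI6h_F against MI6h_R, and 1 up in late minus early. In the same order and directions it called 3161, 2882, 3492, 3247, 1624, 1451 and 1338, 885, and 586 of all 11742 genes. Fits of only the groups compared gave 1 and 0 in MI24h, 0 up in MI1h_R and 0 and 1 in MI24h_F against Sham, 17 up in MI6h_F against MI6h_R and 1 up in late minus early. All genes called in these fits numbered 2145 and 2470, 1690 up, 2681 and 3197, 565 up and 2 up, in the same order. Median-of-ratios factors and no filter moved no count of called members by over 1.5 times. Without the filter, members higher at an unadjusted p under 0.05 went from 7 to 11 in MI6h_F against MI6h_R and from 1 to 3 in late reperfusion minus permanent ligation, and all genes higher in MI1h_R than in MI6h_R from 148 to 90. The cause of these changes was not tested. Leaving out 1 library gave, against Sham, 1 to 8 up and 0 to 3 down in MI24h, 0 to 5 and 0 to 1 in MI1h_R, 5 to 27 down in MI6h_R, 0 to 8 and 1 to 6 in MI24h_F, 3 to 22 down in MI1h_F, and 0 to 4 and 1 to 4 in MI6h_F. It gave 0 to 2 up in MI1h_R against MI6h_R and 0 to 1 down in MI24h_F against MI24h. An arm left with 2 libraries shares the spread of the other groups. For single members, 335 of the values under another setting kept direction and side of the threshold, 66 lost and 21 gained the call, and 6 changed sign. With a replicate block 1 member was up in MI24h against Sham, 0 in MI1h_R against MI6h_R, and 15 were down in MI6h_R against Sham. The numbers were not shown to pair the libraries: correlations of 20 same-numbered pairs ran from -0.54 to 0.32, and 1 of 20 libraries matched its own number best. No paired analysis was possible for comparisons with F because the numbers of the groups with and without F do not connect.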
